A study of Mus musculus with 10 samples.

Results

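The LIF, JAK and STAT3 pathway was described here by 9 genes of the 19477 genes named by the mm10 annotation: the receptor chains Lifr and Il6st, the kinases Jak1 and Jak2, the transcription factor Stat3, and the target genes Socs3, Pim1, Pim3 and Gbx2. The genes were chosen by name, with earlier results of these data known, and each feature that the annotation assigns to them was taken. They have 12 of the 28730 sites measured, a site being a 3′UTR with 2 kb of downstream sequence added. Features with the same coordinates were summed, and Lifr, Il6st and Stat3 have more than 1 site.

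Leukemia inhibitory factor (LIF) binds a receptor made of LIFR and gp130, which is the product of Il6st. JAK kinases bound to the receptor then phosphorylate STAT3, which moves to the nucleus and activates transcription. In mouse embryonic stem cells (ESC) this pathway sustains self-renewal, and SOCS3 feeds back on the receptor complex and limits the signal.

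RNA was sequenced from ESC of 3 groups of strain C57BL/6, all grown in serum with LIF on mitomycin C-treated embryonic fibroblasts (MEF) or on gelatin, and the labels do not say which surface a sample had. WT cells were compared with DIDO3ΔE16 cells, homozygous for a deletion of the exon specific to DIDO3 (exon 16 of Dido1), and with DIDO3ΔCT+HADIDO3 cells, in which a C-terminal deletion of DIDO3 was reconstituted with HA-tagged DIDO3. Of the 10 samples in the labels, WT replicates 2 and 3 carry the same library number; they count as 1 library here (WT 2-3), which gives each group 3 libraries. Whether replicates are separate cultures, and how many independent lines a group holds, is not given in the labels, so a p-value here measures the spread between samples.

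The bases in features, which are the depth, were 2.27, 1.95 and 1.97 Gb in WT 1, 2-3 and 4. They were 1.46, 1.93 and 2.15 Gb in DIDO3ΔE16 1 to 3, and 2.26, 2.15 and 2.62 Gb in DIDO3ΔCT+HADIDO3 1 to 3. The run codes of WT 1 and WT 4 begin with C7A9 and those of all other libraries with C79M, so WT 2-3 is the only WT library that shares a run code family with the mutants. With the run code family as a covariate, the mutants are thus compared with WT 2-3 alone, while the spread comes from the mutant libraries and from WT 1 and WT 4. The levels are StringTie's TPM, which scale reads by the length of a site and the total of the library.

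The labels were checked on the mutated gene and on stem cell markers. The most distal Dido1 site (chr2:180655963-180659338, minus strand) had 17.9, 16.8 and 13.7 TPM in WT 1, 2-3 and 4, 0.546, 0.511 and 0.307 TPM in DIDO3ΔE16 1 to 3, and 12.1, 11.5 and 10.9 TPM in DIDO3ΔCT+HADIDO3 1 to 3. It was low in each DIDO3ΔE16 library and in no other. All 10 stem cell markers were above 0 in each library; Tdgf1 was the most abundant, with mean levels of 2254 TPM (WT), 2155 (DIDO3ΔE16) and 2369.7 (DIDO3ΔCT+HADIDO3), and Sox2 had 386.2 to 485.2 TPM across the 9 libraries. Nanog was at 3.10 TPM in WT 4 alone, and Esrrb at 5.18 in WT 1, 8.78 in WT 4 and 9.70 in DIDO3ΔCT+HADIDO3 2. In the same group other libraries had up to 676.4 TPM of Nanog and 1155 or 1903 TPM of Esrrb, so a most abundant site can be near absent in a single library; 1894 of the 13393 sites that reach 10 TPM (14.1%) differed by over 10-fold between the libraries of a group.

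**Figure D1:**
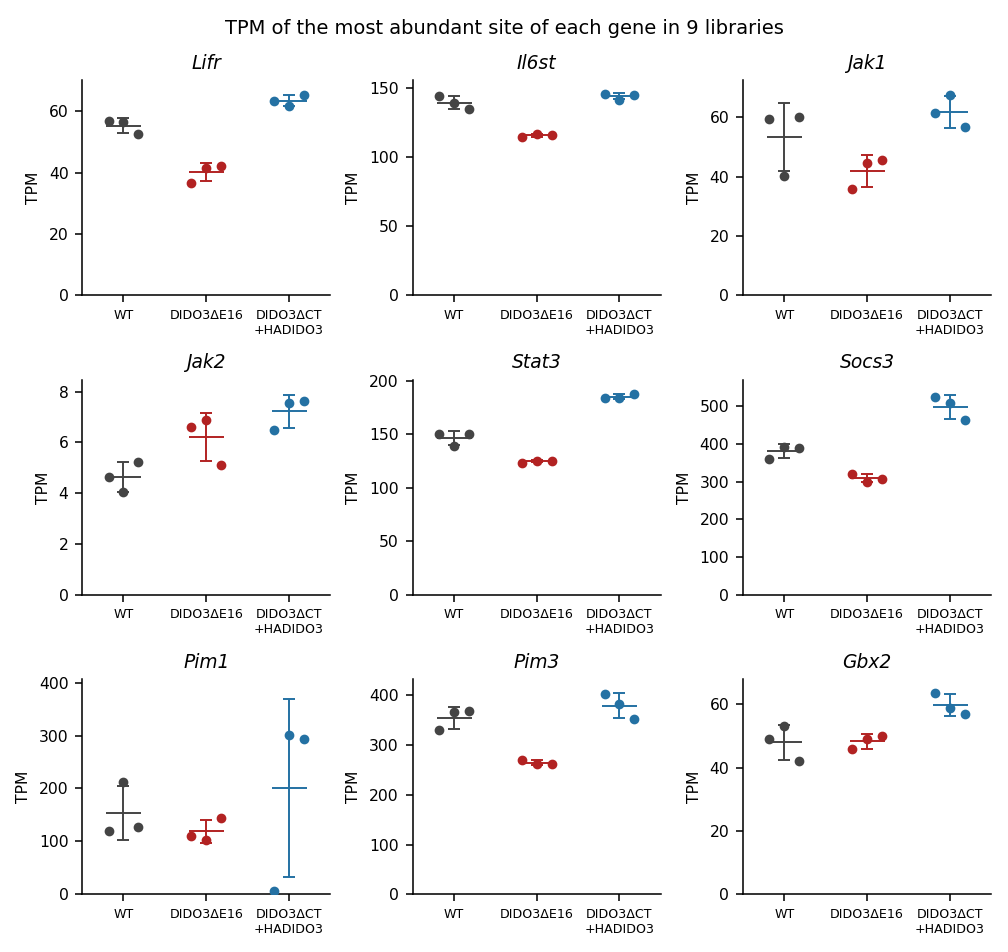
Level of the most abundant site of each of the 9 genes (y axis, TPM) in the 3 groups (x axis); points are libraries, long lines are means and error bars are SD (n = 3). For Socs3 the groups are apart, with means of 309 TPM in DIDO3ΔE16, 381 in WT and 499 in DIDO3ΔCT+HADIDO3, while Pim1 is at 6.17 TPM in DIDO3ΔCT+HADIDO3 1.

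In WT, the order of the mean levels of the most abundant sites was Socs3 (381 ± 17.7 TPM, SD, n = 3), Pim3 (354 ± 21.7), Pim1 (154 ± 51.6), Stat3 (146 ± 6.25), Il6st (139.5 ± 4.82), Lifr (55.3 ± 2.48), Jak1 (53.3 ± 11.4), Gbx2 (47.9 ± 5.57) and Jak2 (4.65 ± 0.585). The gap between Jak2 and the other 8 genes was larger than the spread.

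Each comparison was fitted over all sites with TPM above 0 in every library compared, with limma on log2(TPM + 0.1) after scaling, and p-values were adjusted by Benjamini-Hochberg over all sites. The added 0.1 understates the change of low sites. To be called, a site needed a log2 fold change of 0.7 or more in either direction together with an adjusted p below 0.05, the thresholds of the study. All 12 sites of the pathway genes were above 0 in all libraries and were tested in each comparison. The comparisons with WT share their WT libraries, so their results are given side by side and not related to each other.

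The first question was how the RNA of the pathway differs where the DIDO3 exon is deleted. DIDO3ΔE16 had less RNA than WT at the receptor sites and at Stat3, Socs3 and Pim3, by amounts mostly under the fold threshold. By limma with Benjamini-Hochberg adjustment, 1 of 12 sites was called, a fall of the proximal Il6st site, where 15.2% of the 21063 sites tested were called (4.91% lower). By the adjusted p alone 7 of 12 sites passed, all lower, where 33.2% of all sites passed (17.3% lower). Over the most abundant sites of the 9 genes, the median log2 fold change was -0.36, beside -0.01 over all sites.

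Cells with reconstituted DIDO3 were compared with WT to see how the pathway stands when HA-tagged DIDO3 is expressed in C-terminally deleted cells. DIDO3ΔCT+HADIDO3 had more RNA than WT at the proximal receptor sites, Jak2, Stat3 and Socs3. By limma with Benjamini-Hochberg adjustment, 1 of 12 sites was called, a rise of the proximal Il6st site, where 17.3% of 20879 sites were called (10% higher). By the adjusted p alone 5 of 12 sites passed, all higher, where 38.4% of all sites passed (18.4% higher). The median log2 fold change of the most abundant sites was 0.13, beside -0.01 over all sites.

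The mutant groups were also compared directly, as DIDO3ΔE16 against DIDO3ΔCT+HADIDO3, which uses no WT library and only C79M run codes. DIDO3ΔE16 had less RNA at the receptor sites, Jak1, the main Stat3 site, Socs3, Pim3 and Gbx2, and no test passed for Jak2, Pim1 and the minor Stat3 site. By limma with Benjamini-Hochberg adjustment, 2 of 12 sites were called, the proximal sites of Lifr and Il6st, both lower, where 27.3% of 21172 sites were called (13.4% lower). By the adjusted p alone 9 of 12 sites passed, all lower, where 49.2% of all sites passed (24.5% higher and 24.7% lower). The median log2 fold change of the most abundant sites was -0.50, beside 0.01 over all sites; the median absolute change was 0.54 beside 0.52, so in size the pathway sites were near the background. Since bulk RNA was measured, fewer cells of a type and less RNA per cell cannot be told apart.

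**Figure D2:**
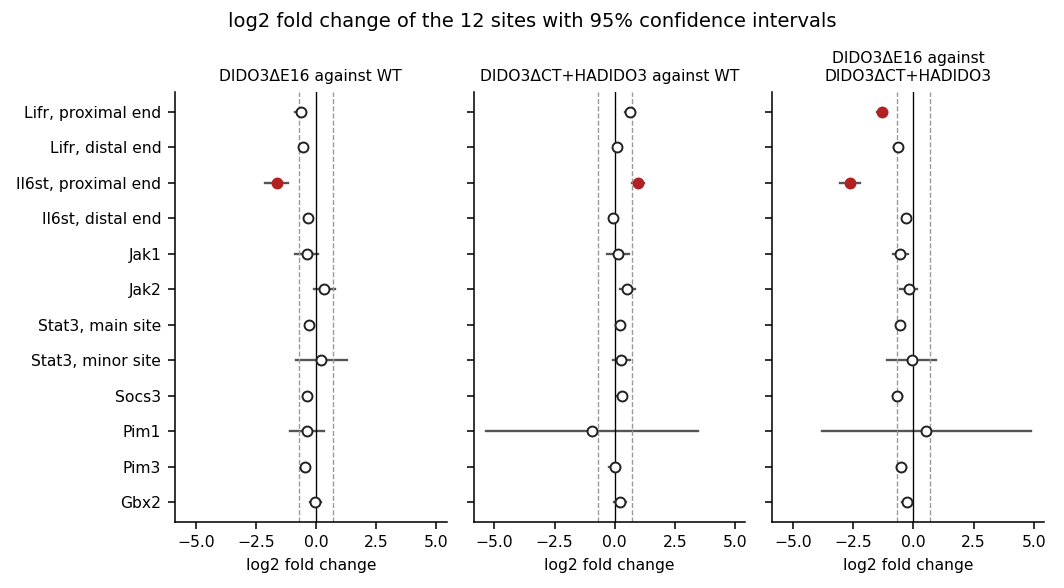
Log2 fold change (x axis) of the 12 sites of the 9 genes (y axis) in the 3 comparisons (panels); points are limma estimates with 95% confidence intervals, filled where called, and dashed lines mark 0.7 in either direction. The proximal Il6st site is called in each comparison, at -1.64, 0.96 and -2.63, and the proximal Lifr site in the direct comparison, at -1.30.

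Lifr (ENSMUSG00000054263.12) encodes the LIF-binding chain of the receptor and has a pair of separate 3′ ends on chromosome 15, plus strand. The proximal site (chr15:7185075-7187733, of which 659 bases are annotated as 3′UTR) had 15.2, 17.3 and 16.4 TPM in WT 1, 2-3 and 4, 11.5, 10.4 and 10.5 in DIDO3ΔE16 1 to 3, and 27.2, 24.8 and 29.8 in DIDO3ΔCT+HADIDO3 1 to 3. DIDO3ΔE16 libraries were lowest, WT in the middle and DIDO3ΔCT+HADIDO3 highest, and no groups overlapped. The limma log2 fold change in the direct comparison was -1.30 ± 0.09 (SE; 95% confidence interval -1.53 to -1.08; Benjamini-Hochberg adjusted p = 0.000237). Against WT it was -0.65 ± 0.09 in DIDO3ΔE16 (limma, adjusted p = 0.00458), under the fold threshold. For DIDO3ΔCT+HADIDO3 it was 0.63 ± 0.09 against WT (limma, adjusted p = 0.00456), also under the threshold. Both values lie near 0.7, and single libraries and settings moved them across it: DIDO3ΔE16 against WT was -0.71 without WT 1 and -0.70 without DIDO3ΔE16 1, and DIDO3ΔCT+HADIDO3 against WT was 0.70 without DIDO3ΔCT+HADIDO3 2. With the run code family as a covariate the values against WT were -0.74, called (limma, adjusted p = 0.0261), and 0.54, under the threshold, and with no scaling that of DIDO3ΔCT+HADIDO3 was 0.74 and called (limma, adjusted p = 0.00308).

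The distal Lifr site (chr15:7191170-7199489) was the more abundant. It had 56.9, 56.6 and 52.5 TPM in WT 1, 2-3 and 4, 36.7, 41.5 and 42.0 in DIDO3ΔE16 1 to 3, and 63.2, 61.8 and 65.3 in DIDO3ΔCT+HADIDO3 1 to 3. DIDO3ΔE16 libraries lay well below WT, and DIDO3ΔCT+HADIDO3 libraries a little above it, without overlap. The limma log2 fold change was -0.53 ± 0.06 for DIDO3ΔE16 against WT (adjusted p = 0.00279) and 0.09 ± 0.04 for DIDO3ΔCT+HADIDO3 against WT (adjusted p = 0.135). Between the mutants it was -0.64 ± 0.06 (limma, adjusted p = 0.000601). No distal value reached the fold threshold; with both sites summed, the direct comparison did, at -0.84 (limma, adjusted p = 8.64e-05).

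Il6st encodes gp130, the signalling chain that receptors of the LIF and interleukin-6 family share. Its proximal site (chr13:112481549-112485613, plus strand, 2065 bases of 3′UTR) had 2.49, 2.23 and 2.32 TPM in WT 1, 2-3 and 4, 0.882, 0.644 and 0.639 in DIDO3ΔE16 1 to 3, and 5.17, 4.71 and 5.15 in DIDO3ΔCT+HADIDO3 1 to 3. The groups kept the order of proximal Lifr, with wide gaps between them. Depth was low here: mean coverage in DIDO3ΔE16 was 0.369 to 0.406 reads per base. RNA from this site fell in DIDO3ΔE16 by 1.64 ± 0.18 on the log2 scale against WT (limma, adjusted p = 0.00252), rose in DIDO3ΔCT+HADIDO3 by 0.96 ± 0.10 (limma, adjusted p = 0.00169), and was at -2.63 ± 0.17 between the mutants (95% confidence interval -3.06 to -2.20; limma, adjusted p = 0.000211). Both calls against WT held with each library left out in turn. Compared with WT 2-3 alone, they held with the run code family as a covariate, at -1.57 (limma, adjusted p = 0.0298) and 1.03 (limma, adjusted p = 0.0149). Within the C79M family, where the spread comes from the mutant libraries alone, that of DIDO3ΔE16 did not hold, at -1.59 (limma, adjusted p = 0.0581), and that of DIDO3ΔCT+HADIDO3 did, at 1.03.

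The distal Il6st site (chr13:112504446-112508860) carried most of the gene's RNA. It had 144.5, 139.1 and 134.9 TPM in WT 1, 2-3 and 4, 114.9, 116.9 and 115.8 in DIDO3ΔE16 1 to 3, and 146.2, 141.7 and 145.3 in DIDO3ΔCT+HADIDO3 1 to 3. DIDO3ΔE16 was below all other libraries, and DIDO3ΔCT+HADIDO3 overlapped WT. For DIDO3ΔE16 the limma log2 fold change was -0.33 ± 0.03 against WT (adjusted p = 0.0012) and -0.29 ± 0.03 against DIDO3ΔCT+HADIDO3 (adjusted p = 0.000954). For DIDO3ΔCT+HADIDO3 against WT it was -0.05 ± 0.04 (limma, adjusted p = 0.294), and its sign turned with no scaling (0.050) and with quantile normalization (0.065).

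The share of each receptor gene's TPM at its distal end was compared over libraries. The proximal sites lie upstream of the distal ones and include 2 kb of added sequence. Their TPM thus counts any read there, and the share was not tested as a measure of 3′ end use. For Lifr it was 78.9, 76.6 and 76.2% in WT 1, 2-3 and 4, 76.1, 80.0 and 80.1% in DIDO3ΔE16 1 to 3, and 69.9, 71.4 and 68.7% in DIDO3ΔCT+HADIDO3 1 to 3. DIDO3ΔE16 overlapped WT, and DIDO3ΔCT+HADIDO3 lay below both. The mean of DIDO3ΔCT+HADIDO3 differed from WT by -7.25 percentage points (2-sided exact permutation test, p = 0.1, the smallest p that 3 libraries against 3 allow), and DIDO3ΔE16 from WT by 1.48 points (exact permutation test, p = 0.4). For Il6st the distal share was 98.3, 98.4 and 98.3% in WT, 99.2, 99.5 and 99.5% in DIDO3ΔE16, and 96.6, 96.8 and 96.6% in DIDO3ΔCT+HADIDO3, in the same order of libraries. No Il6st groups overlapped: the share was 1.03 points higher in DIDO3ΔE16 than in WT and -1.70 points apart in DIDO3ΔCT+HADIDO3 (exact permutation test, p = 0.1 for each).

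**Figure D3:**
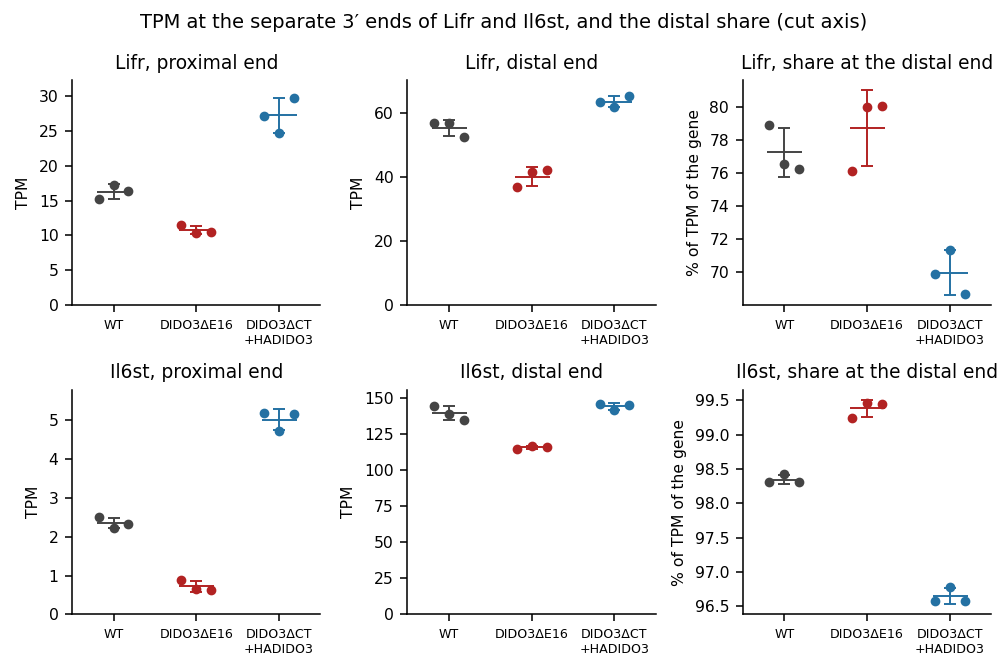
Levels of the proximal and distal sites of Lifr and Il6st (y axes, TPM) and the distal share of each gene's TPM (y axis, %, not starting at 0) in the 3 groups (x axes); points are libraries and long lines are means with SD (n = 3). The mean distal share of Il6st is 98.3% for WT, 99.4% for DIDO3ΔE16 and 96.6% for DIDO3ΔCT+HADIDO3.

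The last 30 bases of the transcripts that end at these sites are shown because the receptor genes were measured at separate 3′ ends. They come from GENCODE M21 (GRCm38), are read 5′ to 3′ on the plus strand, and capitals mark AATAAA, the letters of the common polyadenylation signal, searched on the transcript strand. The proximal Lifr site had no transcript end to match. The windows are chr15:7197460-7197489, chr13:112483587-112483616 and chr13:112506831-112506860.
Lifr distal: AATAAAtatattttcttacatcttacccta
Il6st proximal: tttcatAATAAAcaagaatgtaattttaaa
Il6st distal: ttctgcccgtgggctcgtattctttcgtgt
AATAAA was in the windows of distal Lifr and proximal Il6st and not in that of distal Il6st; 33057 of 141767 transcripts (23.3%) hold it in their last 30 bases. A match is a description of letters only.

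Jak1 encodes the kinase that gp130 mainly uses. Its site (chr4:101149974-101153494, minus strand) had 59.6, 40.2 and 60.3 TPM in WT 1, 2-3 and 4, 35.8, 44.6 and 45.6 in DIDO3ΔE16 1 to 3, and 61.3, 67.5 and 56.7 in DIDO3ΔCT+HADIDO3 1 to 3. WT 2-3 was far below the other WT libraries and within the DIDO3ΔE16 range, so DIDO3ΔE16 overlapped WT; DIDO3ΔCT+HADIDO3 overlapped WT too and lay above each DIDO3ΔE16 library. The limma log2 fold change was -0.39 ± 0.19 for DIDO3ΔE16 against WT (adjusted p = 0.186) and -0.54 ± 0.12 between the mutants (adjusted p = 0.0145). For DIDO3ΔCT+HADIDO3 against WT it was 0.13 ± 0.18 (limma, adjusted p = 0.621), and -0.064 without WT 2-3. The site shares 3016 bases with Raver2 on the opposite strand, which had 43.7 to 96.0 TPM. The study describes stranded libraries, but no strand option stands in the StringTie command line of the files, so reads from overlapping sites on opposite strands cannot be told apart.

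Jak2 encodes a further kinase of cytokine receptors and was the least abundant of the 9 genes. Its site (chr19:29311849-29315080, plus strand) had 4.64, 4.07 and 5.24 TPM in WT 1, 2-3 and 4, 6.61, 6.90 and 5.13 in DIDO3ΔE16 1 to 3, and 6.47, 7.57 and 7.62 in DIDO3ΔCT+HADIDO3 1 to 3. WT was the lowest group on average, and WT 4 and DIDO3ΔE16 3 made WT and DIDO3ΔE16 overlap. DIDO3ΔCT+HADIDO3 lay above WT, with a log2 fold change of 0.53 ± 0.13 (limma, adjusted p = 0.0267); with the run code family as a covariate this was 0.70 and called (limma, adjusted p = 0.0426). Within the C79M family, where WT 2-3 is the only WT library, Jak2 was not called. For DIDO3ΔE16 against WT the log2 fold change was 0.35 ± 0.17 (limma, adjusted p = 0.183), and between the mutants -0.20 ± 0.15 (limma, adjusted p = 0.313).

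Stat3 encodes the factor that the receptor complex activates. Its main site (chr11:100884806-100888704, minus strand) had 150.0, 139.2 and 150.1 TPM in WT 1, 2-3 and 4, 123.4, 124.8 and 125.3 in DIDO3ΔE16 1 to 3, and 183.5, 183.5 and 187.8 in DIDO3ΔCT+HADIDO3 1 to 3. The groups formed 3 tight, separate ranges, with DIDO3ΔE16 lowest and DIDO3ΔCT+HADIDO3 highest. The limma log2 fold change was -0.29 ± 0.04 for DIDO3ΔE16 against WT (adjusted p = 0.00471), 0.23 ± 0.04 for DIDO3ΔCT+HADIDO3 against WT (adjusted p = 0.00919) and -0.55 ± 0.02 between the mutants (adjusted p = 6.8e-05). All were under the fold threshold. A minor site (chr11:100884806-100889515) had 2.00 to 5.55 TPM, and no test passed there. The main site shares 2364 bases with Stat5a on the opposite strand, whose main site there had 11.9 to 20.99 TPM.

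Over the 9 libraries and 17958 sites, the sites whose log2 levels had the highest Pearson r with Stat3 were those of Sft2d2 (0.997), Eid2b (0.997) and Sod2 (0.996). For Socs3 they were those of Ocel1, Usp21 and Ndufb7 (0.993 each). These values describe likeness over libraries that fall into 3 groups.

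Socs3, an inhibitor that STAT3 induces, had the highest level of the 9 genes. Its site (chr11:117964087-117967552, minus strand) had 361, 392 and 390.5 TPM in WT 1, 2-3 and 4, 321, 299 and 307 in DIDO3ΔE16 1 to 3, and 525, 509 and 463 in DIDO3ΔCT+HADIDO3 1 to 3. All DIDO3ΔE16 libraries were below and all DIDO3ΔCT+HADIDO3 libraries above the WT range. The limma log2 fold change was -0.36 ± 0.06 for DIDO3ΔE16 against WT (adjusted p = 0.00831) and 0.28 ± 0.08 for DIDO3ΔCT+HADIDO3 against WT (adjusted p = 0.0399). Between the mutants it was -0.67 ± 0.07 (limma, adjusted p = 0.00118), just under the fold threshold, and it was called without DIDO3ΔCT+HADIDO3 3 (-0.74) and with quantile normalization (-0.71).

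A stretch of the Socs3 promoter is shown because it holds the motif TTCNNNGAA, which STAT3 binds and which reads the same on both strands. The 300 bases around the start sites of the 9 genes, from RefSeq (GRCm38.p6), gave 11 promoters, and the motif occurred in 1 of them (9.09%), beside 2726 of all 32851 promoters (8.30%). Capitals mark it in the window chr11:117969501-117969530, minus strand, where it begins 154 bases before the start site.
Socs3 promoter: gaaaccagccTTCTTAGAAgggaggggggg
The match describes letters in this window, and no match elsewhere says only that the letters are not in those windows.

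Pim1 encodes a serine/threonine kinase that STAT3 induces. Its site (chr17:29494748-29497459, plus strand) had 120.0, 213 and 128 TPM in WT 1, 2-3 and 4, 109.8, 103.5 and 143.9 in DIDO3ΔE16 1 to 3, and 6.17, 301 and 294 in DIDO3ΔCT+HADIDO3 1 to 3. DIDO3ΔCT+HADIDO3 1 was far below every other library and the other two of its group were the highest, while DIDO3ΔE16 overlapped WT. Both features of the site were low in that library, at 3.13 and 3.04 TPM. The value of DIDO3ΔCT+HADIDO3 against WT was -0.96 ± 1.69 on the log2 scale (limma, adjusted p = 0.696) and 0.89 without that library (limma, adjusted p = 0.105). Between the mutants it was 0.54 ± 1.68 (limma, adjusted p = 0.815), and without that library -1.31 and called (limma, adjusted p = 0.00497). DIDO3ΔE16 differed from WT by -0.39 ± 0.27 (limma, adjusted p = 0.334).

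Pim3 encodes a related kinase. Its site (chr15:88864763-88867726, plus strand) had 329, 365.5 and 368 TPM in WT 1, 2-3 and 4, 269, 261 and 262 in DIDO3ΔE16 1 to 3, and 402, 382 and 353 in DIDO3ΔCT+HADIDO3 1 to 3. DIDO3ΔE16 was below all other libraries, and DIDO3ΔCT+HADIDO3 overlapped WT. The limma log2 fold change of DIDO3ΔE16 was -0.48 ± 0.06 against WT (adjusted p = 0.00404) and -0.50 ± 0.07 against DIDO3ΔCT+HADIDO3 (adjusted p = 0.0027). For DIDO3ΔCT+HADIDO3 against WT it was -0.01 ± 0.09 (limma, adjusted p = 0.963), a value whose sign turned with no scaling (0.10) and with quantile normalization (0.12).

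Gbx2 encodes a homeobox factor that acts downstream of STAT3 in ESC. Its site (chr1:89925962-89928619, minus strand) had 48.9, 52.9 and 41.9 TPM in WT 1, 2-3 and 4, 45.7, 49.0 and 50.1 in DIDO3ΔE16 1 to 3, and 63.4, 58.7 and 56.7 in DIDO3ΔCT+HADIDO3 1 to 3. DIDO3ΔE16 lay within the WT range, and each DIDO3ΔCT+HADIDO3 library was above both. Between the mutants the log2 fold change was -0.28 ± 0.07 (limma, adjusted p = 0.0199), and DIDO3ΔCT+HADIDO3 differed from WT by 0.22 ± 0.10 (limma, adjusted p = 0.162). For DIDO3ΔE16 against WT it was -0.05 ± 0.09 (limma, adjusted p = 0.736), with the sign turned by no scaling (0.016), by quantile normalization (0.053) and without WT 2-3 (0.025).

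The rest of the pathway was read from 48 other genes in 5 lists, each gene by its most abundant site: ligands, other receptors of the gp130 family, other JAK kinases and STAT factors, inhibitors and phosphatases, and other STAT3 targets of stem cells. In DIDO3ΔE16 against WT, 6 rose and 6 fell of 47 tested, where 10.2% of all sites were called higher and 4.91% lower. For DIDO3ΔCT+HADIDO3 against WT, 5 rose and 7 fell of 46 tested, beside 10% and 7.24%. Between the mutants 12 were higher and 8 lower of 46 tested in DIDO3ΔE16, beside 14% and 13.4%. The median log2 fold changes of these genes were -0.01, -0.12 and 0.18, beside -0.01, -0.01 and 0.01 over all sites.

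**Figure D4:**
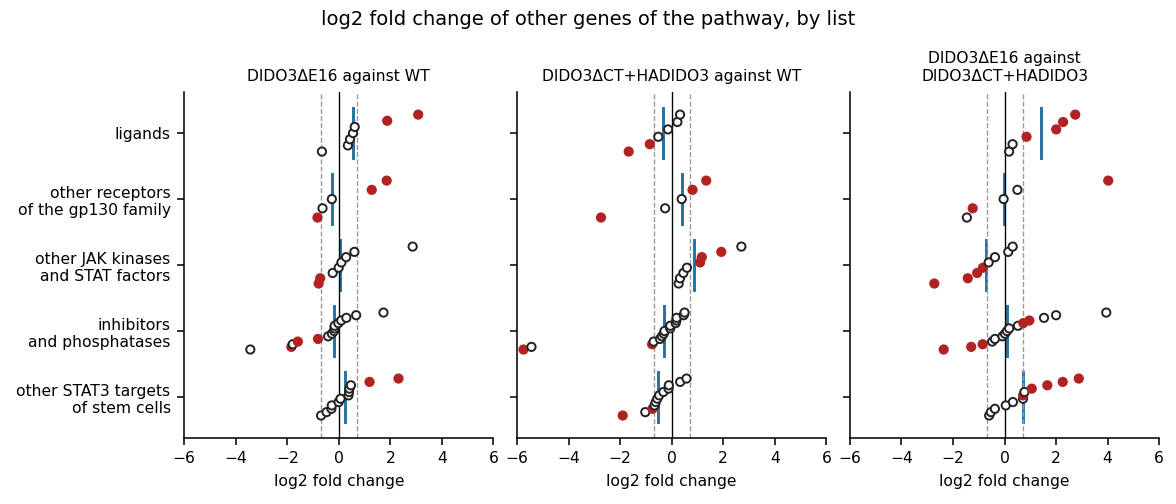
Log2 fold change (x axis) of the 48 other pathway genes by list (y axis) in the 3 comparisons (panels); points are genes, filled where called, and the blue line is the list's median. The ligands have a median of 0.55 in DIDO3ΔE16 against WT, -0.33 in DIDO3ΔCT+HADIDO3 against WT and 1.43 between the mutants.

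The list of ligands holds 7 cytokines that signal through gp130. In DIDO3ΔE16 against WT 2 rose and 0 fell (limma; 1 was lower at an unadjusted p under 0.05), with a median of 0.55. In DIDO3ΔCT+HADIDO3 against WT 0 of 6 tested rose (limma; 0 at an unadjusted p under 0.05) and 2 fell, with a median of -0.33. Between the mutants 4 of 6 were higher in DIDO3ΔE16 and 0 lower (limma; 0 at an unadjusted p under 0.05), with a median of 1.43. Lif, the ligand of LIFR, was the most abundant of them and had 15.2, 15.5 and 14.1 TPM in WT 1, 2-3 and 4, 17.2, 20.8 and 21.9 in DIDO3ΔE16 1 to 3, and 9.65, 11.2 and 12.8 in DIDO3ΔCT+HADIDO3 1 to 3. DIDO3ΔE16 was above and DIDO3ΔCT+HADIDO3 below the WT libraries, in the opposite order to both Lifr sites and the proximal Il6st site. At the distal Il6st site DIDO3ΔCT+HADIDO3 overlapped WT. In Lif the mutants differed by 0.85 on the log2 scale (limma, adjusted p = 0.00389). Il11 and Ctf1 (cardiotrophin-1) rose in DIDO3ΔE16 by 1.88 (limma, adjusted p = 0.00182) and 3.08 (limma, adjusted p = 0.0113), from at most 1.35 TPM in any WT library to at most 9.01 TPM. Cntf (ciliary neurotrophic factor) fell in DIDO3ΔCT+HADIDO3 by 1.67 against WT (limma, adjusted p = 0.00178), from 2.28 to 2.56 TPM in WT to 0.611 to 0.899 TPM. Il11, Ctf1 and Cntf were higher in DIDO3ΔE16 than in DIDO3ΔCT+HADIDO3 by 2.00, 2.74 and 2.27. The call of Osm (oncostatin M) in DIDO3ΔCT+HADIDO3, at -0.85 (limma, adjusted p = 0.0277), was lost with a pseudocount of 1 (-0.53), with the run code family as a covariate (-0.95) and without WT 1 (-0.93), WT 2-3 (-0.80), WT 4 (-0.82), DIDO3ΔCT+HADIDO3 1 (-0.87) or DIDO3ΔCT+HADIDO3 3 (-0.68). Ctf1 overlaps Ctf2 on the opposite strand.

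Markers of feeder fibroblasts also differed between the groups. Their summed level, over 12 genes, was 67.3, 65.8 and 73.0 TPM in WT 1, 2-3 and 4, 148, 147 and 154 in DIDO3ΔE16 1 to 3, and 94.8, 102.9 and 99.9 in DIDO3ΔCT+HADIDO3 1 to 3. In DIDO3ΔE16 against WT 9 of 10 tested rose and 0 fell (limma; 0 at an unadjusted p under 0.05). In DIDO3ΔCT+HADIDO3 against WT 2 rose and 5 fell of 7 tested, and between the mutants 5 were higher and 2 lower in DIDO3ΔE16 of 7 tested. The most abundant was Thy1, with a mean of 35.1 TPM; it rose by 1.40 and Pdgfrb by 2.82 in DIDO3ΔCT+HADIDO3 against WT (limma, adjusted p = 0.000132 and 5.34e-05). Thy1 and Pdgfrb had means of 54.4 and 39.6 TPM in DIDO3ΔCT+HADIDO3 and made up most of the summed level there. The collagen gene Col1a2 had 18.1, 16.7 and 20.0 TPM in WT, 36.5, 39.2 and 38.9 in DIDO3ΔE16, and 0.229, 0.246 and 0.242 in DIDO3ΔCT+HADIDO3. Col3a1 and Twist2 were at 0 in each DIDO3ΔCT+HADIDO3 library, Lum was at 0 in all libraries but DIDO3ΔCT+HADIDO3 2 (0.061 TPM), and Dcn was at most 0.129 TPM. DIDO3ΔE16 was thus highest in the sum of these markers and in the summed level of the ligands, and the part of other cells in the results for the ligands, receptors and other pathway genes was not tested.

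Among 6 other receptors of the gp130 family, 2 rose and 1 fell in DIDO3ΔE16 against WT and in DIDO3ΔCT+HADIDO3 against WT, of 5 tested in each, and 1 was higher and 1 lower between the mutants. The medians were -0.27, 0.39 and -0.04. Osmr, the oncostatin M receptor chain that pairs with gp130, had 1.38, 1.08 and 1.75 TPM in WT 1, 2-3 and 4, 3.08, 4.37 and 3.53 in DIDO3ΔE16 1 to 3, and 0.268, 0.125 and 0.052 in DIDO3ΔCT+HADIDO3 1 to 3. Its order was the reverse of that of Lifr. Osmr rose in DIDO3ΔE16 by 1.28 (limma, adjusted p = 0.012) and fell in DIDO3ΔCT+HADIDO3 by 2.74 against WT (limma, adjusted p = 0.00505); the fall was not called with the run code family as a covariate (-2.42; limma, adjusted p = 0.0507), and the mutants differed by 4.02 (limma, adjusted p = 0.000714). Il6ra, the interleukin-6 receptor chain, had 5.62, 5.67 and 5.60 TPM in WT, 16.9, 25.3 and 23.3 in DIDO3ΔE16, and 15.4, 16.7 and 14.4 in DIDO3ΔCT+HADIDO3. It was higher in both mutants than in WT, by 1.86 (limma, adjusted p = 0.00117) and 1.34 (limma, adjusted p = 0.000422). Cntfr rose in DIDO3ΔCT+HADIDO3 by 0.81 (limma, adjusted p = 0.000971); 1 fit of all libraries did not call it (limma, adjusted p = 0.424), with DIDO3ΔE16 2 at 3.21 TPM, and for its most abundant single feature the value was -0.02.

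Of 8 other JAK kinases and STAT factors, 0 rose (limma; 0 at an unadjusted p under 0.05) and 2 fell in DIDO3ΔE16 against WT, with a median of 0.05. In DIDO3ΔCT+HADIDO3 against WT 3 rose and 0 fell (limma; 0 at an unadjusted p under 0.05), with a median of 0.85. Between the mutants 4 were lower in DIDO3ΔE16 and 0 higher (limma; 2 at an unadjusted p under 0.05), with a median of -0.73. Jak3, the kinase of receptors that use the common gamma chain, had 27.4, 26.8 and 29.4 TPM in WT 1, 2-3 and 4, 18.4, 15.8 and 16.4 in DIDO3ΔE16 1 to 3, and 122, 109.8 and 110.5 in DIDO3ΔCT+HADIDO3 1 to 3. It fell in DIDO3ΔE16 by 0.78 (limma, adjusted p = 0.00259) and rose in DIDO3ΔCT+HADIDO3 by 1.92 (limma, adjusted p = 0.000134), without overlap. Stat5b had 21.2, 18.96 and 21.2 TPM in WT, 17.6, 17.9 and 18.6 in DIDO3ΔE16, and 48.1, 48.9 and 51.3 in DIDO3ΔCT+HADIDO3. DIDO3ΔCT+HADIDO3 stood above the other groups; it rose by 1.17 against WT (limma, adjusted p = 0.000243), not called with single features (0.87), and the mutants differed by -1.43 (limma, adjusted p = 2.71e-05). The call of Stat4 in DIDO3ΔE16, at -0.72 (limma, adjusted p = 0.0195), was lost without WT 4 (-0.59), DIDO3ΔE16 1 (-0.72), DIDO3ΔE16 2 (-0.70) or DIDO3ΔE16 3 (-0.75) and with a pseudocount of 1 (-0.60), no scaling (-0.66) or the run code family as a covariate (-0.51). Stat2 was the most abundant, with a mean of 66.4 TPM, and ranged from 16.5 to 135.6 TPM within DIDO3ΔE16; it overlaps Il23a on the opposite strand.

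Inhibitors of the pathway and phosphatases made up 15 genes. In DIDO3ΔE16 against WT 0 rose (limma; 2 at an unadjusted p under 0.05) and 3 fell, and in DIDO3ΔCT+HADIDO3 against WT 0 rose (limma; 1 at an unadjusted p under 0.05) and 2 fell. Between the mutants 2 were higher and 3 lower in DIDO3ΔE16; the medians were -0.18, -0.28 and 0.09. Socs2, an inhibitor of cytokine and growth hormone signalling, had 156, 137 and 132 TPM in WT 1, 2-3 and 4, 44.8, 48.8 and 53.3 in DIDO3ΔE16 1 to 3, and 94.1, 84.5 and 90.3 in DIDO3ΔCT+HADIDO3 1 to 3. It fell in both mutants, in DIDO3ΔE16 by 1.59 (limma, adjusted p = 0.000316) and in DIDO3ΔCT+HADIDO3 by 0.76 (limma, adjusted p = 0.00152), the latter not called with no scaling (-0.66), quantile normalization (-0.65) or single features (-1.16). Pias3, an inhibitor of STAT3, had 14.7, 17.5 and 26.3 TPM in WT, 4.82, 5.73 and 5.75 in DIDO3ΔE16, and 26.1, 35.7 and 25.4 in DIDO3ΔCT+HADIDO3. It fell in DIDO3ΔE16 by 1.85 (limma, adjusted p = 0.00417) and differed between the mutants by -2.36 (limma, adjusted p = 0.000253), and it overlaps Nudt17 on the opposite strand. Ptpn11, the phosphatase SHP2 that binds gp130, had 177, 178 and 167 TPM in WT, 167, 4.93 and 172 in DIDO3ΔE16, and 4.24, 2.92 and 3.07 in DIDO3ΔCT+HADIDO3. All DIDO3ΔCT+HADIDO3 libraries and DIDO3ΔE16 2 were low and all others high. Within DIDO3ΔE16 the highest library was 34.9-fold above the lowest, a gap inside a group like those of Nanog and Esrrb. Ptpn11 was lower in DIDO3ΔCT+HADIDO3 than in WT by 5.75 on the log2 scale (limma, adjusted p = 7.35e-05). The part of such gaps in this difference was not tested. Cish fell in DIDO3ΔE16 by 0.81 (limma, adjusted p = 0.0202), a call lost without WT 1 (-0.82), WT 4 (-0.74) or DIDO3ΔE16 2 (-0.64) and with the run code family as a covariate (-0.68), and differed between the mutants by -1.29. Socs5 and Ptpn1 were higher in DIDO3ΔE16 than in DIDO3ΔCT+HADIDO3 by 0.96 and 0.73; Ptpn1 was not called without DIDO3ΔCT+HADIDO3 3 (0.64) or with gene sums (0.69), was at 0.18 for its most abundant single feature and overlaps Ripor3 on the opposite strand. Pias2 was the most abundant, with a mean of 104.2 TPM.

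The list of other STAT3 targets of stem cells holds 12 genes. In DIDO3ΔE16 against WT 2 rose and 0 fell (limma; 4 at an unadjusted p under 0.05), with a median of 0.22. In DIDO3ΔCT+HADIDO3 against WT 0 rose (limma; 2 at an unadjusted p under 0.05) and 2 fell, with a median of -0.52. Between the mutants 5 were higher in DIDO3ΔE16 and 0 lower (limma; 3 at an unadjusted p under 0.05), with a median of 0.72. Tfcp2l1, a factor of naive pluripotency and the most abundant, had 750, 733 and 740.5 TPM in WT 1, 2-3 and 4, 1032, 1000.2 and 1019 in DIDO3ΔE16 1 to 3, and 1037, 984 and 981 in DIDO3ΔCT+HADIDO3 1 to 3. Both mutants were above WT, by 0.40 and 0.33, under the fold threshold. Klf4 had 444, 399 and 426.5 TPM in WT, 449, 426 and 439.5 in DIDO3ΔE16, and 275, 271 and 266 in DIDO3ΔCT+HADIDO3. The DIDO3ΔCT+HADIDO3 libraries were below all others; Klf4 fell there by 0.75 against WT (limma, adjusted p = 0.000527), which was not called with no scaling (-0.64), quantile normalization (-0.62) or the run code family as a covariate (-0.67). Between the mutants Klf4 differed by 0.72, which was not called with no scaling (0.70), quantile normalization (0.69) or gene sums (0.69), or without DIDO3ΔE16 1 (0.70) or DIDO3ΔCT+HADIDO3 3 (0.69). Myc had 16.9, 15.02 and 11.5 TPM in WT, 16.4, 21.1 and 20.9 in DIDO3ΔE16, and 4.44, 3.94 and 3.75 in DIDO3ΔCT+HADIDO3. It fell in DIDO3ΔCT+HADIDO3 by 1.90 (limma, adjusted p = 0.00102), and the mutants differed by 2.26 (limma, adjusted p = 0.000166). Bcl6 rose in DIDO3ΔE16 by 1.19 (limma, adjusted p = 0.00135), from at most 4.89 TPM in WT to 10.02 to 11.9 TPM. Pramel7 rose in DIDO3ΔE16 by 2.31 (limma, adjusted p = 0.0108), at 1.34 to 1.79 TPM, and was not called with the run code family as a covariate (limma, adjusted p = 0.0751). Bcl6, Pramel7 and Zfp57 were higher in DIDO3ΔE16 than in DIDO3ΔCT+HADIDO3 by 1.66, 2.88 and 1.05, and Zfp57 overlaps Mog on the opposite strand. Over the settings and libraries left out, the Pramel7 value ran from 1.04 to 2.74 in DIDO3ΔE16 against WT. Between the mutants it ran from 1.21 to 3.56.

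Markers of other states of the cells were read in the same way. In DIDO3ΔE16 against WT 0 of 10 stem cell markers were called (limma, with 4 at an unadjusted p under 0.05). Nanog and Esrrb were near absent in single WT libraries, and their estimates were wide, at 3.20 ± 2.33 and 4.99 ± 2.25 (SE). For these genes the count of 0 therefore does not show that levels were alike. In DIDO3ΔCT+HADIDO3 against WT Zfp42 rose by 1.65 and Fgf4 fell by 0.87. The 5 primitive endoderm markers, with Gata4 the most abundant at a mean of 19.5 TPM, summed to 62.6, 76.2 and 86.7 TPM in WT 1, 2-3 and 4, 25.7, 31.0 and 34.0 in DIDO3ΔE16 1 to 3, and 23.4, 21.9 and 25.2 in DIDO3ΔCT+HADIDO3 1 to 3. The sum was lower in both mutants: 3 of 5 fell in DIDO3ΔE16 and 4 of 5 in DIDO3ΔCT+HADIDO3. Of the 4 formative markers, with Dnmt3b the most abundant at a mean of 179.5 TPM, Otx2 fell in DIDO3ΔE16 by 2.25 and rose in DIDO3ΔCT+HADIDO3 by 1.01, and Pou3f1 fell in DIDO3ΔCT+HADIDO3 by 1.003. Of the 4 mesoderm markers, Eomes was the most abundant, with a mean of 35.7 TPM; it rose in DIDO3ΔE16 by 0.88 and fell in DIDO3ΔCT+HADIDO3 by 0.70, and T rose in DIDO3ΔE16 by 0.96. Between the mutants, Fgf4 was higher in DIDO3ΔE16 by 0.74 and Zfp42 differed by -1.59. Of the primitive endoderm markers 3 of 5 were higher and 0 lower (limma, 1 lower at an unadjusted p under 0.05). Of the formative markers 2 were higher and 1 lower, which was Otx2 at -3.28. Of the mesoderm markers 2 were higher and 1 lower, with Eomes at 1.56. The part of these markers in the results of the pathway genes was not tested.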

How the data were processed

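RNA-seq of 9 libraries of mouse ESC was analysed. The authors aligned reads to mm10 with BWA (0.7.15) and ran StringTie (1.3.3) on UCSC 3′UTRs with 2 kb added. TPM per feature were deposited by the authors without scaling between libraries, and the mean coverage deposited per feature was used for depth and as an alternative to TPM in the distal share. Features with identical exon blocks were summed to a site. A trimmed mean of log2 ratios (30% off each end) set each library's scale, and limma (3.58.1, R 4.3.3; trend, robust) was fitted, with p-values adjusted over all sites by Benjamini-Hochberg; the edgeR of the study was replaced, since TPM are not counts. Tables and figures were made with matplotlib (3.10.9), pandas (2.3.3), numpy (2.4.6) and scipy (1.17.1) in Python (3.11.15). The fit was also run on simulated data with normally distributed noise. These did not model sites that are near absent in single libraries, so the fit was not tested for such sites.

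Members, lists and tests were chosen with earlier results of these data known. Named genes were all sites of the 9 genes; from each list the called genes (at most 6 per list and comparison), the most abundant gene and, for markers, those at 0; and the 3 sites most like Stat3 and Socs3. Some genes of the lists are not reported here by name. The lists were those of ligands, receptors, JAK and STAT genes, inhibitors, targets, and markers of stem cells, feeder fibroblasts, primitive endoderm, formative cells and mesoderm. The alternatives were other pseudocounts, filters, scalings, features, gene sums, a fit of all libraries, the run code family, the replicate block, a stricter adjusted p and leaving out each library. Sites by outer coordinates, no fold threshold and the exon-block definition of a site were chosen after seeing the data.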

Additional observations from a re-analysis of the deposited data

Results flagged for a closer look

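The effects of both mutant lines against WT differed at the proximal site of Lifr, by a direct test of 1 line against the other. The log2 fold change of DIDO3ΔE16 against DIDO3ΔCT+HADIDO3 was -1.30 (limma, Benjamini-Hochberg adjusted p = 0.000237), and DIDO3ΔE16 was lower in 3 of 3 libraries.

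At the proximal site of Il6st the effects of the lines against WT differed too, by the same direct test, with a log2 fold change of -2.63 (limma, adjusted p = 0.000211) and DIDO3ΔE16 lower in 3 of 3 libraries. The level in DIDO3ΔE16 was 0.722 ± 0.139 TPM (SD, n = 3), so depth limits its precision.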

How the results depend on the processing

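Of the log2 fold changes of the most abundant sites under the alternatives, 528 kept their direction and their side of the threshold. A further 17 turned sign, and 4 kept their sign but became stronger and crossed the threshold. The sign turned for Gbx2 in DIDO3ΔE16 against WT with no scaling (0.016), quantile normalization (0.053) and without WT 2-3, where leaving out libraries gave -0.13 to 0.025. In DIDO3ΔCT+HADIDO3 against WT it turned for distal Il6st with no scaling (0.050) and quantile normalization (0.065), for Jak1 without WT 2-3 (-0.064 to 0.24 over libraries left out) and for Pim1 without DIDO3ΔCT+HADIDO3 1 (-1.89 to 0.89). Pim3 turned there with a filter on the mean (0.0015), no scaling (0.097), quantile normalization (0.12), single features (0.00052), gene sums (0.011) and the replicate block (0.096), and without WT 2-3, WT 4 or DIDO3ΔCT+HADIDO3 3 (-0.071 to 0.060). Between the mutants Pim1 turned without DIDO3ΔCT+HADIDO3 1 (-1.31 to 1.47). These values were small except for Pim1, and the cause was not tested.

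The number of member sites called was 0 with single features and with the replicate block in each comparison with WT, and 0 between the mutants with single features; gene sums gave 0, 0 and 1. Single features leave out the proximal sites by construction, and gene sums add them to the other sites of the gene. Beside these counts of 0 by limma, 4, 3 and 6 of 9 members had an unadjusted p under 0.05 with single features. Over all features these counts were 8895 of 24677, 9573 of 24720 and 11585 of 24883. Gene sums gave 5 and 4 of 9 against WT, beside 7622 of 15555 and 7867 of 15290 in all. The replicate block gave 7 and 4 of 12, beside 6195 of 21063 and 6919 of 20879. Whether the member counts exceed these shares was not tested. The run code family as a covariate gave 2 in each comparison with WT, no scaling 2 in DIDO3ΔCT+HADIDO3 against WT, and no fold threshold 7, 5 and 9. Leaving out each library gave 1 to 2 in each comparison with WT. Over all sites the covariate called 1680 higher and 702 lower of 21063 in DIDO3ΔE16 against WT. In DIDO3ΔCT+HADIDO3 against WT it called 1865 higher and 1206 lower of 20879, and no scaling called 2494 and 1221. Whether 2 of 12 member sites exceeds these shares was not tested. Among all sites, the replicate block gave 0 and 0 against WT, where 6195 and 6919 had an unadjusted p under 0.05 and 1 residual degree of freedom was left, so its counts of 0 say nothing about single sites. An adjusted p of 0.01 gave 2116 sites in DIDO3ΔE16 against WT, and no fold threshold gave 6992, 8022 and 10424. For the other pathway genes the replicate block gave 0 and 0, an adjusted p of 0.01 gave 7 in DIDO3ΔE16, and no fold threshold gave 25 and 25. The cause was not tested.

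The correlation of residuals was small in all pairs of libraries. It was 0.00379 to 0.0371 (median 0.0169) in pairs with the same replicate number and -0.0457 to 0.0299 (median -0.00534) in others. WT 2-3 was counted as number 2 alone, and a weak pairing was not tested. The run code family could not be fitted between the mutants, which share 1 family, and WT has 1 library in it, so within the C79M family the spread comes from the mutants alone. Depth limits proximal Il6st, and 1 library decides Pim1.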
